A study of Homo sapiens with 15 samples.

Results

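The epithelial keratins described here are 6 genes, KRT7, KRT8, KRT17, KRT18, KRT19 and KRT80, taken by their symbols from the gene tables of 2 human cell lines. All 6 were found both among the 62703 genes of the HEK293T table and among the 35595 genes of the HuCCT1 table. HEK293T is a line made from human embryonic kidney cells, and HuCCT1 is a line from a cholangiocarcinoma, a cancer of the bile duct epithelium. The study asked whether SMD2, the Sm ring protein of spliceosomal RNPs encoded by SNRPD2, acts together with pseudouridine, a modified base of RNA. Libraries of HEK293T were labelled SNRPD2KO, PUS7KO or Ctrl and libraries of HuCCT1 SNRPD2KO or Ctrl, with 3 in each of the 5 groups. The knockouts were made with CRISPR-Cas9, and PUS7 encodes a pseudouridine synthase. Whether a knockout group is 1 clone or a pool of cells, and what the Ctrl cells carry, is not given in the sources used here. Total RNA was depleted of ribosomal RNA before sequencing. No label says that libraries of a group came from separate cultures, so p-values measure only the spread between these libraries, which may be technical.

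Keratins are the intermediate filament proteins of epithelial cells. A filament is built from pairs of 1 acidic type I chain and 1 basic or neutral type II chain, so that both types are made together. KRT17, KRT18 and KRT19 are type I, and KRT7, KRT8 and KRT80 are type II. KRT8 and KRT18 are the pair of simple epithelia such as liver cells, KRT7 and KRT19 are added in bile duct cells and serve as their stains in pathology, and KRT17 is known from basal, wounded and cancerous epithelia. KRT80 is less studied and is found in many epithelia.

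KRT7 lies at chr12:52232520-52252186, KRT8 at chr12:52897187-52949954, KRT18 at chr12:52948871-52952906 and KRT80 at chr12:52168996-52192014 of hg38. KRT17 lies at chr17:41619442-41624842 and KRT19 at chr17:41523617-41528308. Thus the type II members and KRT18 stand in the type II cluster of chromosome 12, and KRT17 and KRT19 in the type I cluster of chromosome 17. For the type I members, whose 2 called genes in HuCCT1 are described below, a stretch of 60 bases of the coding sequence is shown. The stretch was chosen as the one most alike among all 6 members, within 1 exon of each. It codes for the end of the central rod of the filament proteins. The sequences are from the GENCODE 29 transcripts, 5′ to 3′ on the coding strand, and capitals mark the 42 bases that are the same in all 3.
KRT17: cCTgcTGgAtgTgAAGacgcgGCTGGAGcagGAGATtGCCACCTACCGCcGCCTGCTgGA
KRT18: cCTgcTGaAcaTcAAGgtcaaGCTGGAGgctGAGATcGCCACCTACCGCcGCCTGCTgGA
KRT19: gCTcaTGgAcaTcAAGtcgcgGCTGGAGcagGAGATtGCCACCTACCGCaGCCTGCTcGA
In the genome these are exon 6 of 8 of KRT17 at chr17:41620674-41620733 on the minus strand, exon 6 of 7 of KRT18 at chr12:52952265-52952324 on the plus strand, and exon 6 of 6 of KRT19 at chr17:41523792-41523851 on the minus strand. Within the stretch KRT17 and KRT19 differed at 9 bases, KRT17 and KRT18 at 13, and KRT18 and KRT19 at 15. Over the whole coding sequence KRT17 and KRT19 were 72.1% identical, KRT7 and KRT8 70.1%, and KRT8 and KRT80 58.6%. The transcripts of KRT8 and KRT80 shared an exact run of 65 bases. Reads that fall within such a run cannot be told apart by sequence, so part of the counts of 1 member could belong to another.

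The libraries held 7944276 to 11270267 counts in HEK293T and 13776166 to 16795618 in HuCCT1. PUS7 RNA was 16.0 ± 2.2 CPM (a gene's counts scaled to a common library size within each line; SD, n = 3) in PUS7KO and 26.5 ± 0.5 in Ctrl, and fell by 0.72 on the log2 scale (SE 0.11, adjusted p = 6.72e-05, edgeR). SNRPD2 RNA went against its label. In HuCCT1 it was 259.9, 285.9 and 318.5 CPM in the 3 libraries labelled SNRPD2KO and 159.9, 146.2 and 157.4 CPM in Ctrl, a log2 fold change of 0.90 (SE 0.07, adjusted p = 1.82e-06, edgeR). In HEK293T it was higher by 0.62 in the libraries labelled SNRPD2KO (adjusted p = 4.86e-05, edgeR) and by 0.52 in PUS7KO (adjusted p = 0.000338, edgeR) than in Ctrl. In both count tables the columns that the labels give to SNRPD2KO have names starting with C and those given to Ctrl have names starting with S. Every direction below is therefore one between libraries as they are labelled. An RNA level alone does not show whether the gene was edited. The 12 biliary epithelium markers summed to 1095 to 1113 CPM in HuCCT1 Ctrl and to 27.3 to 28.9 CPM in HEK293T Ctrl. The 9 embryonic kidney line markers summed to 136.8 to 186.3 CPM in HEK293T Ctrl and to 16.6 to 18.5 CPM in HuCCT1 Ctrl. Of these kidney line markers, PAX8, a kidney transcription factor, went the other way, with 11.2 ± 1.0 CPM in HuCCT1 Ctrl and 0.26 ± 0.16 CPM in HEK293T Ctrl (log2 5.48, adjusted p = 4.09e-11, edgeR), and LHX1, another, had no count in HEK293T Ctrl. Both genes are named after their values were seen.

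HuCCT1 made RNA of all 6 keratins, and HEK293T of KRT8 and KRT18 with a trace of KRT17. Together the 6 genes took 1.18% to 1.28% of all counts in the HuCCT1 libraries and 0.0208% to 0.0360% in the HEK293T libraries. KRT7 gave 2 counts over all 9 HEK293T libraries, KRT19 1 count and KRT80 5 counts, while 3 counts in a single library correspond to 0.266 to 0.378 CPM. These 3 genes did not pass the filter on low counts in HEK293T, and no comparison between HEK293T groups was possible for them. In bulk RNA, fewer cells that make a keratin and less keratin RNA per cell cannot be told apart.

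**Figure D1:**
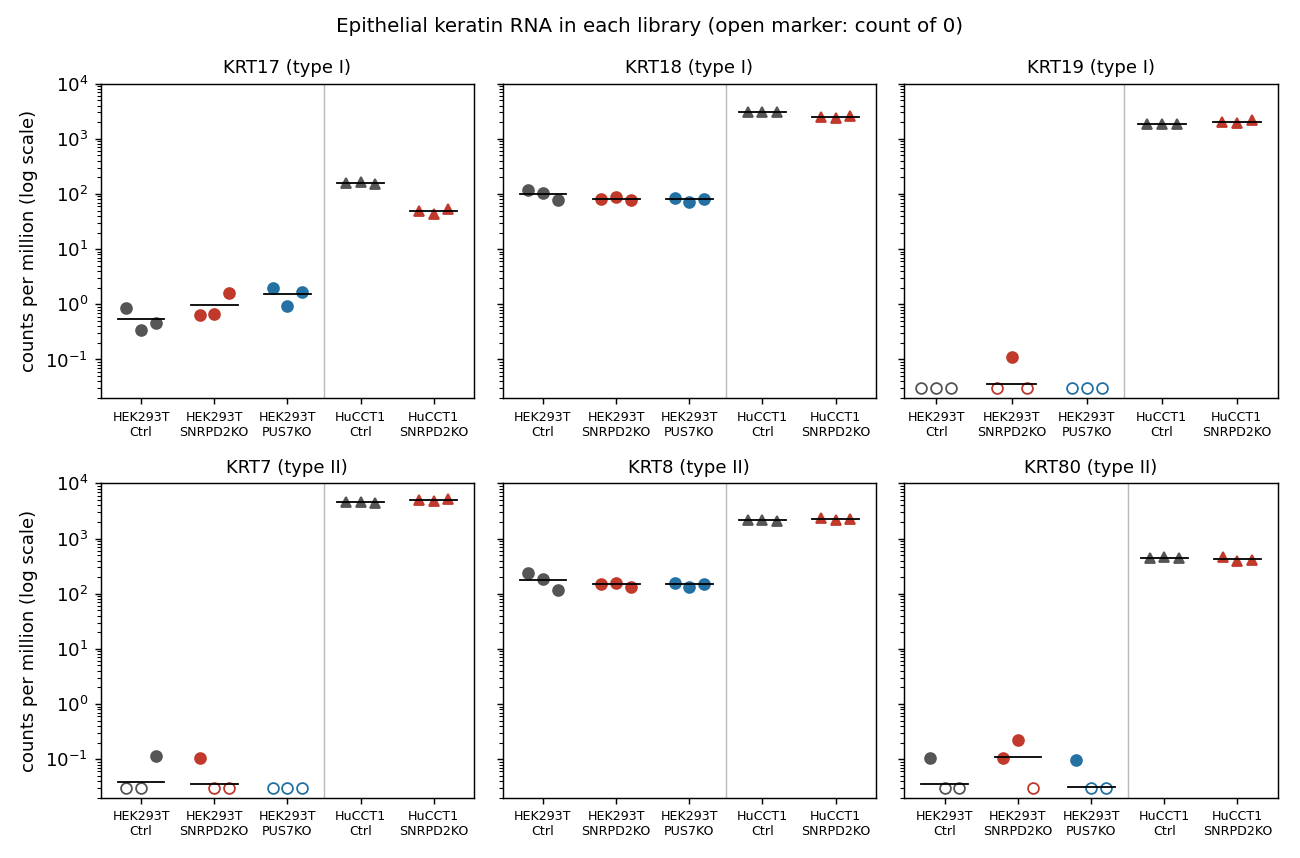
CPM (log axis) of each member in each of the 15 libraries, by group; each point is 1 library and an open marker is a count of 0. KRT7, KRT19 and KRT80 sit at 0 to 2 counts in HEK293T, and KRT17 in HuCCT1 lies at 43.0 to 53.9 in the libraries labelled SNRPD2KO and at 152.5 to 164.7 in Ctrl.

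Per kb of transcript, the level of KRT7 was highest in HuCCT1 Ctrl at 2620 ± 53.1 CPM per kb (SD, n = 3). KRT18 followed with 1961 ± 1.9, KRT19 with 1348 ± 7.3 and KRT8 with 1007 ± 23.5 CPM per kb. KRT80 stood at 116 ± 4.2 and KRT17 at 104 ± 4.2 CPM per kb, and these last 2 were close, with ranges of 113.4 to 120.8 and 100.5 to 108.6. No neighbours in this order overlapped in Ctrl. In the libraries labelled SNRPD2KO the order began again with KRT7 at 2814 ± 123 CPM per kb, but KRT18 at 1593 ± 68.4 and KRT19 at 1476 ± 94.4 overlapped. KRT17 was last there, at 32.05 ± 3.6 CPM per kb. In HEK293T Ctrl the levels were 85.1 ± 28.0 CPM per kb for KRT8, 63.3 ± 12.9 for KRT18 and 0.36 ± 0.18 for KRT17, and the ranges of KRT8 and KRT18 overlapped.

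Between the Ctrl libraries of both lines, all 6 members were higher in HuCCT1. KRT7, KRT17, KRT19 and KRT80 passed the filter on low counts through HuCCT1, where they were higher. Their direction was thus set by the filter, and only KRT8 and KRT18 can be read beside the shares of all genes. Of the 17617 genes in the fit of both lines, 40.4% were higher and 41.5% lower, 81.9% called in all. The groups of 83.7% did not overlap. The CPM of each line were scaled within that line. KRT18, the type I chain of simple epithelia, was at 3063 ± 3.0 CPM in HuCCT1 and 98.8 ± 20.1 CPM in HEK293T, a log2 fold change of 5.06 (SE 0.13, adjusted p = 8.65e-17, edgeR). KRT8, its partner, was at 2141 ± 50.03 against 181 ± 59.6 CPM, a log2 fold change of 3.67. KRT17 was at 158 ± 6.3 against 0.55 ± 0.27 CPM, a log2 fold change of 8.22. Across the other scalings and left-out libraries the value stayed between 2.95 and 3.94 for KRT8, between 4.36 and 5.23 for KRT18 and between 7.44 and 8.73 for KRT17. The ratio of CPM was 123700 for KRT7 (95% counting interval 22201 to 4885800) and 12054 for KRT80 (2163 to 476120), each against 1 count in the HEK293T Ctrl libraries. KRT19 had no count there and was at least 16783-fold higher in HuCCT1, taking 3 counts over the 3 Ctrl libraries (0.112 CPM) as the floor. Intervals and floors cover counting error only. Each line has its own table, so the line and the table cannot be told apart.

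In HuCCT1, KRT17 and KRT18 fell in the libraries labelled SNRPD2KO, in which SNRPD2 RNA was the higher, and the other 4 members did not pass the test. Thus 2 of 6 members were called, both lower, where 57.2% of all 15007 tested genes were called and 28.4% were lower. The count of members called is not above the share among all genes. The median log2 fold change of all tested genes was 0.0025.

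KRT17 had the largest difference among the members. It stood at 49.0, 43.0 and 53.9 CPM in the libraries labelled SNRPD2KO and at 155.8, 164.7 and 152.5 CPM in Ctrl. The groups lay far apart, and each library labelled SNRPD2KO was below every Ctrl library. The level in the libraries labelled SNRPD2KO was 0.308 times that in Ctrl, a log2 fold change of -1.70 (SE 0.08, 95% interval -1.87 to -1.52, adjusted p = 4.09e-08, edgeR).

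KRT18 fell by less. Its levels were 2448, 2407 and 2609 CPM in the libraries labelled SNRPD2KO and 3060, 3063 and 3065 CPM in Ctrl. The Ctrl libraries lay close together, and no library of 1 group reached the other. The level was 0.812 times that in Ctrl, a log2 fold change of -0.30 (SE 0.05, 95% interval -0.40 to -0.19, adjusted p = 0.000254, edgeR).

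KRT8, the type II partner of KRT18, stood at 2396, 2181 and 2238 CPM in the libraries labelled SNRPD2KO and at 2167, 2172 and 2083 CPM in Ctrl. The groups did not overlap, though the lowest library labelled SNRPD2KO was near the highest of Ctrl. The log2 fold change was 0.09 (95% interval -0.03 to 0.20, adjusted p = 0.173, edgeR). KRT7, a duct keratin, was at 4988, 4697 and 5119 CPM against 4674, 4619 and 4492 CPM, with a log2 fold change of 0.10 (95% interval -0.0044 to 0.21, adjusted p = 0.0930, edgeR). KRT19, the other duct keratin, was at 1992, 1961 and 2202 CPM against 1871, 1864 and 1884 CPM, with a log2 fold change of 0.13 (95% interval 0.01 to 0.25, adjusted p = 0.0555, edgeR). Both were higher in each library labelled SNRPD2KO than in every Ctrl library, as were 63.5% of all tested genes in one direction or the other. KRT80 was at 466, 385 and 408 CPM against 439, 466 and 438 CPM, so the groups overlapped, and the log2 fold change was -0.09 (95% interval -0.25 to 0.06, adjusted p = 0.278, edgeR).

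The 2 calls held in every alternative run, with KRT17 between -1.76 and -1.61 and KRT18 between -0.32 and -0.26. The members near the threshold moved across it: limma voom called KRT7 (adjusted p = 0.0482) and KRT19 (0.0354) as well, and leaving out library 1 labelled SNRPD2KO called KRT19 at 0.16 (0.0182) and KRT80 at -0.17 (0.0133), while leaving out library 2 called KRT7 at 0.15 (0.0138) and KRT19 at 0.17 (0.0169).

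In HuCCT1 the type I members had the lower sum and the type II members the higher sum in the libraries labelled SNRPD2KO. Summed per kb, the type I members held 3408 to 3419 CPM per kb in Ctrl and 2980 to 3290 in the libraries labelled SNRPD2KO. The type II members held 3655 to 3798 in Ctrl and 3804 to 4091 in the libraries labelled SNRPD2KO. The ratio of type I to type II was 0.897, 0.903 and 0.935 in Ctrl and 0.741, 0.784 and 0.807 in the libraries labelled SNRPD2KO, with no overlap. The ratio of KRT18 to KRT8 alone was 1.92 to 2.00 in Ctrl and 1.39 to 1.59 in the libraries labelled SNRPD2KO. When all keratins in the table were summed, the ratio was 0.611 to 0.647 in Ctrl and 0.608 to 0.667 in the libraries labelled SNRPD2KO, and the groups overlapped. In HEK293T the ratio of the members was 0.675 to 0.889 in Ctrl, 0.739 to 0.820 in the libraries labelled SNRPD2KO and 0.748 to 0.755 in PUS7KO, all overlapping. These ratios are of RNA, are descriptions with no test, and depend on the transcript taken as a gene's length.

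**Figure D2:**
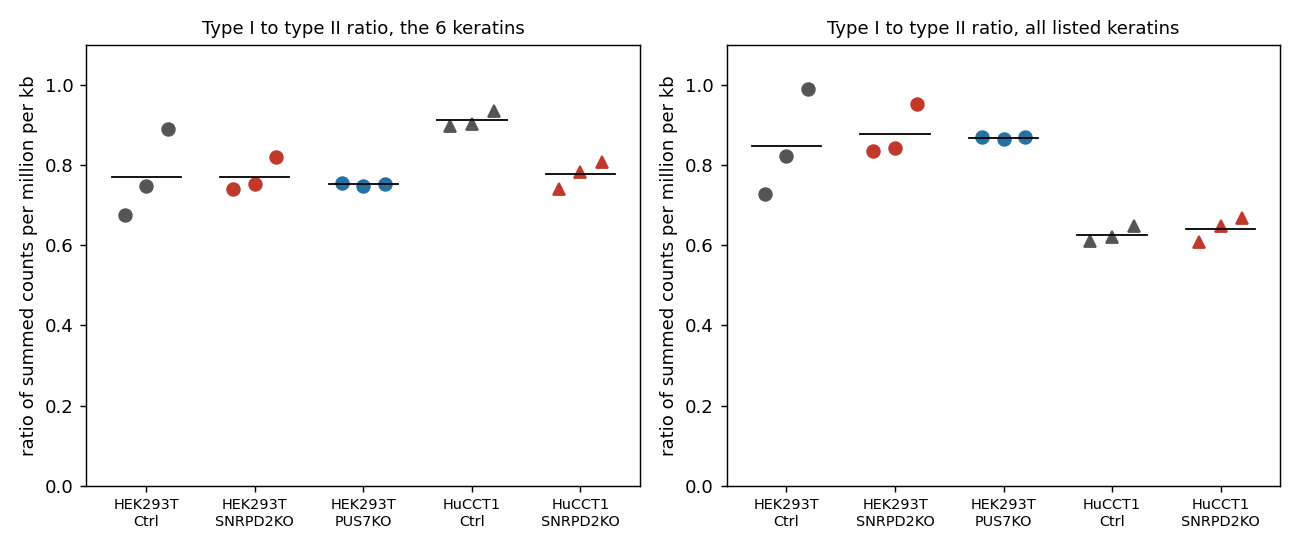
Ratio of summed type I to summed type II CPM per kb in each library, over the 6 members and over all keratins; each point is 1 library. For the members in HuCCT1 the ratio is 0.897 to 0.935 in Ctrl and 0.741 to 0.807 in the libraries labelled SNRPD2KO, and over all keratins the groups overlap.

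The other keratins that changed in HuCCT1 were lower in the libraries labelled SNRPD2KO. Of 26 other type I keratins listed, 4 were tested and 2 fell. Of 23 other type II keratins, 6 were tested and 4 fell. KRT6B, which fell, passed the filter on low counts through Ctrl, where it was higher. It gave 8, 10 and 7 counts in the libraries labelled SNRPD2KO and 69, 72 and 49 in Ctrl. Among all 15007 tested genes 57.2% were called and 28.4% were lower. KRT81, a hair keratin of type II, had the highest level of them. It stood at 1790, 1616 and 1714 CPM in the libraries labelled SNRPD2KO and at 3508, 3395 and 3238 CPM in Ctrl, a log2 fold change of -0.99 (SE 0.05, adjusted p = 1.06e-07, edgeR). In Ctrl its level per kb, 1752 ± 70.3, lay between those of KRT18 and KRT19, while with all exons of the basic annotation as the length KRT18 was at 1524.5 CPM per kb, below it. With KRT81 and the others included, the type II sum was 4644 to 5023 CPM per kb in the libraries labelled SNRPD2KO and 5347 to 5631 in Ctrl. KRT6A, a type II chain of wounded epithelium, stood at 4.13, 3.44 and 5.15 CPM against 24.2, 21.0 and 22.3 CPM, a log2 fold change of -2.41 (SE 0.14, adjusted p = 1.63e-07, edgeR). KRT15, a type I chain of basal cells, fell by 1.04 (adjusted p = 1.26e-05, edgeR) from 34.3 ± 4.5 to 16.7 ± 1.5 CPM, and KRT10, a type I chain of differentiating epidermis, by 0.62 (adjusted p = 0.00163, edgeR) from 45.3 ± 6.3 to 29.4 ± 5.0 CPM. KRT6B and KRT86 were below 5 CPM and are named after their values were seen: KRT6B was at 0.50 ± 0.08 against 4.15 ± 0.42 CPM and KRT86 at 1.39 ± 0.54 against 2.79 ± 0.38 CPM. The call of KRT86 was lost without library 2 labelled SNRPD2KO (-0.75, adjusted p = 0.0508) and without Ctrl library 3 (-0.90, adjusted p = 0.0520). KRT6A and KRT6B are 97.5% identical in coding sequence and KRT81 and KRT86 92.9%, so the split of counts within these pairs is uncertain.

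**Figure D3:**
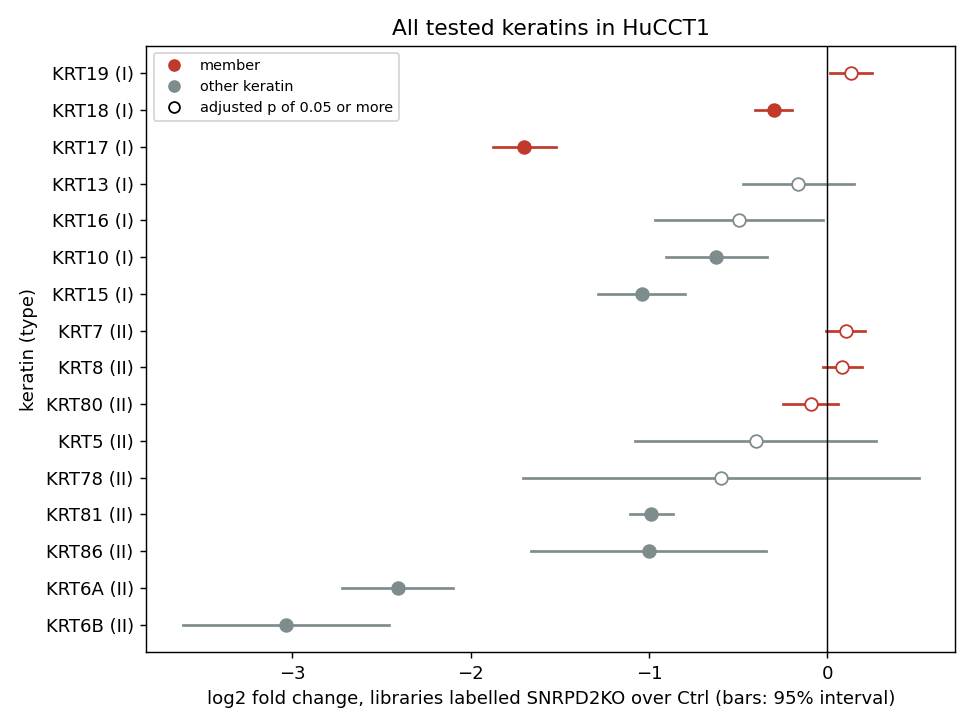
Log2 fold change with its 95% interval of every tested keratin in HuCCT1, libraries labelled SNRPD2KO over Ctrl; members in red, other keratins in grey, open markers where the adjusted p was 0.05 or more. KRT17 at -1.70 and KRT18 at -0.30 are the only filled members, and the filled other keratins all lie below 0.

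In HEK293T, no member passed the test between the libraries labelled SNRPD2KO and Ctrl, with SNRPD2 RNA again the higher in the former. This was 0 of the 3 members tested by edgeR, where 53.3% of 15882 genes were called. The groups overlapped for all 3, and did not overlap for 59.5% of genes. At an unadjusted p under 0.05 there was 1 member by edgeR, 0 by limma voom and 1 by DESeq2, and after adjustment DESeq2 called 1. KRT8 stood at 152.6, 159.6 and 130.5 CPM in the libraries labelled SNRPD2KO and at 237.6, 186.7 and 118.8 CPM in Ctrl. The Ctrl libraries spread from below to above all others. The log2 fold change was -0.30 (95% interval -0.65 to 0.06, adjusted p = 0.146, edgeR). KRT18 stood at 82.3, 87.6 and 77.0 CPM against 117.0, 102.3 and 77.2 CPM, a log2 fold change of -0.27 (95% interval -0.52 to -0.01, adjusted p = 0.0726, edgeR). Ctrl library 3 was the lowest Ctrl library for both genes. Without it KRT8 was called at -0.52 (adjusted p = 0.00184, edgeR) and KRT18 at -0.41 (adjusted p = 0.00347, edgeR), and without Ctrl library 1 the value of KRT8 was -0.05. Removing the trend with GC content called KRT8 at -0.53 (adjusted p = 0.00776) and KRT18 at -0.49 (adjusted p = 0.000857). KRT17 gave 6, 6 and 19 counts against 8, 3 and 4, a log2 fold change of 0.84 (95% interval -0.31 to 2.00, adjusted p = 0.205, edgeR).

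Between PUS7KO and the same Ctrl libraries, 2 of the 3 tested members were called, KRT18 lower and KRT17 higher, where 49.4% of genes were called, 25.6% higher and 23.8% lower. KRT18 was at 85.4, 72.6 and 81.5 CPM in PUS7KO against the same 117.0, 102.3 and 77.2 CPM in Ctrl, so the groups overlapped through Ctrl library 3. It fell by 0.31 on the log2 scale (SE 0.12, adjusted p = 0.0415, edgeR). KRT17 gave 21, 11 and 16 counts against 8, 3 and 4, with no overlap, as for 57.2% of genes, and rose by 1.42 (SE 0.51, adjusted p = 0.0289, edgeR), having passed the filter on low counts through the groups in which it was higher. KRT8 was at 157.7, 133.8 and 150.4 CPM, a log2 fold change of -0.30 (95% interval -0.65 to 0.05, adjusted p = 0.149, edgeR). Both calls were weak. That of KRT18 was lost in 5 of 6 fits that left out a library, with adjusted p = 0.0558, 0.160 and 0.0848 without PUS7KO library 1, 2 or 3 and 0.238 and 0.124 without Ctrl library 1 or 2. That of KRT17 was lost in 4 of 6, with 0.116 and 0.0672 without PUS7KO library 1 or 3 and 0.108 and 0.0877 without Ctrl library 2 or 3. Without Ctrl library 3, KRT8 was called at -0.52 (adjusted p = 0.00212, edgeR).

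The 2 labelled knockouts of HEK293T did not differ by the test in any of the 3 members, where 4.77% of genes were called, 1.57% higher and 3.2% lower. The groups overlapped for all 3 members, and did not overlap for 25.2% of genes. The count was also 0 at an unadjusted p under 0.05, by edgeR, limma voom and DESeq2. The log2 fold change of the libraries labelled SNRPD2KO over PUS7KO was 0.0019 for KRT8 (95% interval -0.35 to 0.35), 0.04 for KRT18 (-0.21 to 0.30) and -0.58 for KRT17 (-1.53 to 0.37). Among the other keratins of HEK293T, KRT10 was tested and higher than in Ctrl in both, by 0.37 in the libraries labelled SNRPD2KO (adjusted p = 0.0348, edgeR) and by 0.49 in PUS7KO (adjusted p = 0.00749, edgeR). Its levels were 13.2, 13.2 and 15.5 CPM in the former, 16.0, 13.4 and 16.3 CPM in PUS7KO and 11.6, 11.2 and 9.77 CPM in Ctrl. The first of these calls was lost without library 3 labelled SNRPD2KO (0.30, adjusted p = 0.112), without Ctrl library 2 (0.40, adjusted p = 0.0551) and without Ctrl library 3 (0.31, adjusted p = 0.106). Other processing lost it too, and over all alternatives the value of KRT10 in that comparison lay between 0.20 and 0.45.

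The difference between the lines in the response to the SNRPD2KO label was tested as an interaction. KRT17 was past the threshold (interaction, HuCCT1 minus HEK293T, -2.61, SE 0.46, 95% interval -3.58 to -1.64, adjusted p = 0.000194, edgeR). It was 1 of 6 members in the fit to be so. KRT17, KRT7, KRT19 and KRT80 passed the filter on low counts through HuCCT1. The 0 to 2 counts of the last 3 in a HEK293T library give no response to compare. Over all genes, 40.7% of the 17617 genes passed, 19.8% with a higher and 20.9% with a lower response in HuCCT1. In HEK293T the value of KRT17 rests on 6, 6 and 19 counts against 8, 3 and 4, so that its response there is poorly measured, and over all alternatives the interaction lay between -3.09 and -1.97. KRT18 had an interaction of -0.08 (95% interval -0.40 to 0.24, adjusted p = 0.723, edgeR) and KRT8 of 0.34 (95% interval -0.13 to 0.80, adjusted p = 0.242, edgeR). Without HEK293T Ctrl library 3 the value of KRT8 was 0.56 (adjusted p = 0.00368, edgeR).

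Genes that hold keratin filaments at the cell surface rose more often than they fell in HuCCT1, in the libraries labelled SNRPD2KO. Of 16 tested genes of desmosomes and keratin linkers, 7 rose and 1 fell, with a median log2 fold change of 0.19, where 28.8% of all genes rose and 28.4% fell. Among them were 2 linkers of the plakin family that bind intermediate filaments. DST, whose epithelial form ties keratin to hemidesmosomes, was at 270 ± 15.8 against 101 ± 2.1 CPM (log2 1.43, adjusted p = 1.94e-08, edgeR). PLEC, plectin, was at 2926 ± 39.9 against 1399 ± 54.5 CPM (log2 1.06, adjusted p = 3.02e-08, edgeR). PPL, periplakin, rose by 1.21 and PKP3, a desmosome plaque protein, by 0.95.

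All 7 hemidesmosome genes changed in HuCCT1, 5 higher and 2 lower, where 57.2% of all genes were called, 28.8% higher and 28.4% lower. ITGB4, the integrin chain to which the linkers attach, rose by 1.89 (SE 0.06, adjusted p = 3.33e-09, edgeR) from 172 ± 5.8 to 640 ± 37.7 CPM. LAMB3, a chain of the laminin outside the cell, fell by 1.97 (SE 0.05, adjusted p = 1.45e-09, edgeR) from 3051 ± 83.2 to 778 ± 31.1 CPM. ITGB4 and LAMB3, parts of the same structure, thus moved in opposite directions.

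Junction genes and regulators of epithelial genes fell more often than they rose in HuCCT1. Of 24 tested genes of epithelial adhesion and polarity, 4 rose and 11 fell, with a median log2 fold change of -0.26, beside 28.8% of all genes higher and 28.4% lower. CGN, cingulin of the tight junction, rose by 1.63, while PARD6B, a polarity protein, fell by 1.15, CLDN1, a claudin, by 0.97 and LSR, a protein of tricellular junctions, by 0.85. Of 17 tested epithelial transcription and splicing regulators, 5 rose and 10 fell, with a median of -0.61, against those same shares. GRHL3, a grainyhead factor, fell by 2.53 and FOXA2 by 1.23, and ESRP2, an epithelial splicing factor, rose by 1.27. Of the 7 AP-1 subunits, transcription factors known to regulate several keratin genes, 4 rose and 3 fell, where 57.2% of all genes were called. Among them FOS was higher by 2.36, JUND by 1.21 and FOSB by 1.09, and FOSL1 was lower by 1.13. Summed, the AP-1 subunits were at 1562 to 1736 CPM in the libraries labelled SNRPD2KO and at 2374 to 2583 CPM in Ctrl.

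Of 8 tested intermediate filament genes other than keratins in HuCCT1, 5 rose and none fell, with LMNB1, a nuclear lamin, higher by 0.46. For this list and those that follow, the shares among all genes were 28.8% higher and 28.4% lower. Markers of other cell types were measured beside the keratins. The biliary epithelium markers summed to 1053 to 1102 CPM in the libraries labelled SNRPD2KO and 1095 to 1113 CPM in Ctrl, with 3 of 9 tested genes higher and 4 lower, among them MUC1 at 1.46 and PROM1 at -1.02. The mesenchymal genes summed to 537.7 to 553.2 against 665.1 to 677.3 CPM, with 3 of 8 higher and 1 lower, the last being FN1, fibronectin, at -0.75. Leukocyte markers summed to 1.84 to 1.91 against 3.41 to 3.82 CPM. Hepatocyte markers summed to 53.3 to 62.3 against 76.6 to 86.3 CPM, most of it SERPINA1. The part of these levels in the keratin results was not tested.

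In HEK293T more linker genes fell than rose. Of 13 tested in the libraries labelled SNRPD2KO, 2 rose and 7 fell, with a median log2 fold change of -0.47 against 0.022 over all genes, where 26.9% of all genes rose and 26.4% fell. PERP, a desmosome membrane protein, fell by 1.501 (adjusted p = 6.53e-09, edgeR), DST by 1.24, DSC2, a desmosomal cadherin, by 0.88 and EPPK1, epiplakin, by 0.67. In PUS7KO 2 of 13 rose and 6 fell, where 25.6% of all genes rose and 23.8% fell, with PERP lower by 1.27 and DST by 0.68. Both comparisons use the same Ctrl libraries. The response of DST to the SNRPD2KO label differed between the lines, with an interaction of 2.62 (adjusted p = 1.18e-09, edgeR). Of 9 tested epithelial regulators, 4 fell and none rose in the libraries labelled SNRPD2KO, with KLF4 lower by 1.15, KLF5 by 0.72 and FOXA1 by 0.71, and 3 fell and none rose in PUS7KO, against the same shares of all genes as for the linkers.

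Of the AP-1 subunits in HEK293T, 4 rose and 3 fell in the libraries labelled SNRPD2KO, where 53.3% of all genes were called, with FOSL1 lower by 2.03, FOSL2 lower by 1.70, JUND higher by 1.14 and JUN higher by 0.91. In PUS7KO 2 rose and 3 fell, where 49.4% of all genes were called. Some filament genes other than keratins also changed in HEK293T. NEFM and NEFL, neurofilament chains, rose by 1.20 and 0.76 in the libraries labelled SNRPD2KO and by 1.76 and 1.04 in PUS7KO. VIM, vimentin, fell by 0.45 in the former and by 0.30 in PUS7KO. The call of VIM in PUS7KO was lost without PUS7KO library 2 (-0.22, adjusted p = 0.0612) and without Ctrl library 1 (-0.23, adjusted p = 0.0518). Leukocyte markers summed to 4.27 to 6.33 CPM in the libraries labelled SNRPD2KO and 1.82 to 3.65 CPM in Ctrl, with PTPRC, CD3E and LYZ at 0 in the former. Their part in the keratin values was not tested.

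**Figure D4:**
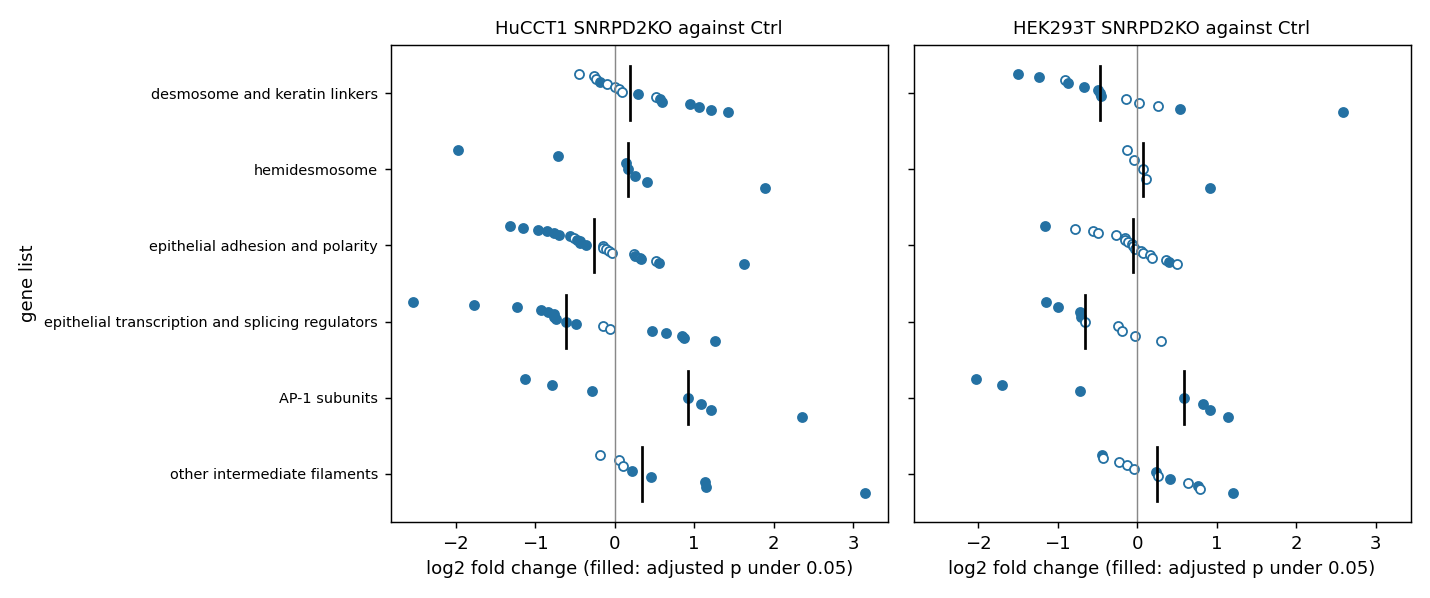
Log2 fold change of each tested gene of the lists, libraries labelled SNRPD2KO over Ctrl, in HuCCT1 and in HEK293T. Each point is 1 gene, filled where the adjusted p was under 0.05. The linker genes lie mostly below 0 in HEK293T, with a median of -0.47 in the libraries labelled SNRPD2KO, and have a median of 0.19 in HuCCT1.

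The genes whose levels followed a member most closely were sought over the 15 libraries, after the mean of each line was removed, among 10722 genes tested in both lines. For KRT17 they were CXCL8, a neutrophil chemokine (Pearson r 0.92), GPC4, a glypican (0.91), and HSPA5, an endoplasmic reticulum chaperone (0.91). For KRT18 they were TMEM45A (0.93), METTL9, a histidine methyltransferase (0.91), and FAM83G (0.90). For KRT8 they were CXCR4, a chemokine receptor (0.87), ANXA2, an annexin (0.85), and LGALS3, galectin-3 (0.82). These values are a description without a test, and values of the same library share its depth and its group.

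Several members share sequence or position with other transcribed genes. KRT8 and KRT18 lie on opposite strands and overlap at chr12:52948871-52949954, over 1084 bases. KRT7-AS, an antisense gene, lies inside KRT7 at chr12:52245048-52247448. In HuCCT1 it was at 34.7, 26.9 and 33.0 CPM in the libraries labelled SNRPD2KO and at 23.5, 24.6 and 22.3 CPM in Ctrl, a log2 fold change of 0.43 (adjusted p = 0.00388, edgeR). The library kit keeps the strand, but whether the counting used it is not given in the sources used here, so reads of KRT7 and KRT7-AS may not have been told apart. Pseudogenes of KRT8 held 1.29% to 1.86% of the counts of KRT8 and its pseudogenes together in HuCCT1, and those of KRT18 0.217% to 0.270% of the like sum. In HEK293T the shares were 4.98% to 8.61% and 4.89% to 14.4%, so the HEK293T values of these genes are the less certain. Pseudogenes of KRT17 held 0% to 15.4% of the like sum in HEK293T, from 0 to 2 counts, and 0% to 0.196% in HuCCT1. In coding sequence KRT17 was 83.8% identical to KRT14 and 76.7% to KRT16.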

How the data were processed

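RNA-seq libraries of HEK293T and HuCCT1 were analysed from gene tables of raw counts deposited by the authors, 1 table per line. The submitters' processing notes name cutadapt 4.2, HISAT2 2.2.1, RSEM and hg38; the annotation release, strand setting and role of each tool are not given in the sources used here. The HuCCT1 columns were assigned to that line because it is the cholangiocarcinoma line. Totals of 7944276 to 16795618 counts set the precision, and replicate libraries differed by more than sampling noise.

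Counts were tested with edgeR 4.0.16 (quasi-likelihood F test, TMM factors, filterByExpr with a minimum count of 10 and total of 15, Benjamini-Hochberg over all tested genes, two-sided, threshold 0.05). HEK293T was fitted with all 9 libraries, HuCCT1 with 6, and the line comparison and interaction with 12. CPM used TMM-scaled totals within each line, and levels per kb the principal GENCODE 29 transcript. The method was tested on simulated data: 2-fold changes were recovered for 71% of genes in HEK293T among 15882 and 79% in HuCCT1 among 15007, 1.5-fold changes for 37% and 61%, and interactions of 2-fold for 50% and of 1.5-fold for 18% among 17617. False calls numbered 2, 8 and 6. Each simulation changed 100 genes at each fold. In the data 53.3% of genes were called between the libraries labelled SNRPD2KO and Ctrl in HEK293T and 57.2% in HuCCT1. The simulated rates may therefore not carry over. Up to 4 genes a list were named, those with the largest change among called, non-overlapping genes of 5 CPM or more, besides the 6 members and the 3 genes most like each member tested in both lines. The members, lists and tests were chosen with earlier results of these data known. Alternatives were limma voom 3.58.1, DESeq2 1.42.0, other scalings and filters, a GC correction and left-out libraries. Replicate numbers did not pair libraries: deviations of same-numbered libraries correlated at -0.086 to 0.044. Some genes and sequences are not reported here.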

Additional observations from a re-analysis of the deposited data

Results flagged for a closer look

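In the comparisons of the libraries labelled SNRPD2KO with Ctrl, 9 genes were named in both lines. Of these 9, 4 had responses that differed between HuCCT1 and HEK293T by the interaction test in edgeR, where 40.7% of all 17617 genes did. The 9 were picked from these same data, and the count of 4 is near that share. Among the 6 members, KRT17 alone was past the threshold. SNRPD2 RNA was the higher in the libraries labelled SNRPD2KO of both lines, so these directions are between libraries as labelled. KRT17 differed by -2.61 on the log2 scale, HuCCT1 minus HEK293T (adjusted p = 0.000194), with all 3 libraries labelled SNRPD2KO below all Ctrl libraries in HuCCT1 and overlapping groups of 3 to 19 counts in HEK293T. It passed the filter on low counts of that fit through HuCCT1, so its response in HEK293T is poorly measured. DST, the hemidesmosome linker, differed by 2.62, being lower by 1.24 in HEK293T and higher by 1.43 in HuCCT1 (adjusted p = 1.18e-09). FN1, fibronectin, differed by -1.31, with 0.52 in HEK293T and -0.75 in HuCCT1 (adjusted p = 4.36e-06). KRT10 differed by -1.04, with 0.37 in HEK293T and -0.62 in HuCCT1 (adjusted p = 0.000352). The call of KRT10 within HEK293T was lost in some alternatives. FOSL1, an AP-1 subunit, fell in both lines, by 2.03 in HEK293T and by 1.13 in HuCCT1, a difference of 0.86 (adjusted p = 0.0102), which limma voom did not call (0.80, adjusted p = 0.148).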

How the results depend on the processing

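Each result was recomputed under other scalings, filters, tools and left-out libraries. In HEK293T no call of a member held throughout. Between the libraries labelled SNRPD2KO and Ctrl, 1 member passed with RLE factors, 1 with DESeq2 and 2 with the GC trend removed, and 0 to 2 with a library left out. Over all alternatives 7749 to 9438 genes were called there, beside 8467 in the main fit. Between PUS7KO and Ctrl, 1 passed with no low-count filter, 1 with limma voom, 1 with DESeq2 and 0 with only the 2 groups in the fit, and 0 to 2 with a library left out. Over all alternatives the count ran from 0 to 3, so another processing setting called 3 members. The genes called ran from 7027 to 8461, beside 7839 in the main fit. The number of genes called between the libraries labelled SNRPD2KO and PUS7KO, 758, was 1292 with no filter, 130 with the GC trend removed, 464 with only the 2 groups and 22 to 1891 with a library left out. The near-zero difference of KRT8 there changed sign, to -0.0014 with upper quartile factors, -0.0050 with protein-coding library sizes, -0.0075 with no filter, -0.0014 with limma voom, -0.0054 with the replicate block, -0.098 with the GC trend removed, -0.012 with only the 2 groups, and lay between -0.059 and 0.089 with a library left out (-0.018, -0.055 and -0.059 without SNRPD2KO library 1 or 2 or PUS7KO library 2). KRT18 there was -0.052 with the GC trend removed and between -0.018 and 0.098 with a library left out (-0.00062 without SNRPD2KO library 2 and -0.018 without PUS7KO library 2).

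In HuCCT1, 4 members passed with limma voom and 2 to 4 with a library left out, and KRT7 was -0.027 with the GC trend removed. The genes called in HuCCT1 numbered 7889 to 8986 over all alternatives and 8591 in the main fit. For the interaction they numbered 6596 to 7463, beside 7171 in the main fit. For the interaction, 2 members passed with the GC trend removed and 1 to 2 with a library left out, and KRT18 was 0.15 in the former and between -0.22 and 0.069 in the latter, the highest without HEK293T Ctrl library 3. The cause of these changes was not tested. The replicate block changed no count of members (0, 2, 0, 2, 1 and 6 in the order of the comparisons, the lines last). The balance of type I to type II in HEK293T was 0.566 in Ctrl, 0.552 in PUS7KO and 0.566 in the libraries labelled SNRPD2KO from plain counts, and 1.29, 1.26 and 1.29 with all exons as the length, an alternative chosen after seeing the data. In HuCCT1 plain counts gave 0.709 in Ctrl and 0.602 in the libraries labelled SNRPD2KO, and with pseudogene counts added PUS7KO was at 0.744. Between the lines, upper quartile factors moved the median log2 fold change of all genes to -0.548, protein-coding library sizes to -0.286 and the GC correction to -0.203, from -0.067. Depth limits KRT17, and leaves KRT7, KRT19 and KRT80 untested, in HEK293T.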
